A study of Homo sapiens with 26 samples.

Results

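Chromosome 21 was described through its bins of 100 kb in 26 single cells that carried the Dam methyltransferase alone. The members were the chromosome 21 bins (hg19) that had a value and were above 0 in at least 1 cell. There were 346 of them, out of 26331 such bins in the whole series. Of these, 171 lay in 21q22, from 31 Mb to the end, and 164 in the 21q11-q21 desert, between 14 and 31 Mb. The other 11 lay below 14 Mb. All cells were KBM7, a human leukaemia line with a nearly haploid genome, from clone 5-8 and labelled 1N and DamOnly. Dam was induced with 0.5 nM Shield1 for 15 h. Sorting took the smallest 2% of cells by scatter among those showing the pair of Fucci reporters, which follow the cell cycle. The series title names LaminB1, whereas every sample label names Dam alone, and the design text counts 124 cells, of which 26 were analysed here. There is 1 group from 1 clone and no control group, so cells are not replicate cultures and no p-value was computed. Each SD is a spread between cells, and each comparison is between regions inside the same cells.

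Dam is a bacterial enzyme that methylates the adenine of GATC, and when it is not tethered to another protein it marks the chromatin it can reach. Chromosome 21 is a short acrocentric chromosome. The centromeric part of its long arm is one of the large gene deserts of the human genome, while the telomeric part, 21q22, holds most of its genes, among them the blood transcription factors RUNX1 and ERG. A RefSeq gene table of another build was used for gene order alone. It lists 189 protein-coding genes on the telomeric side of GRIK1, which spans the border at 31 Mb, of which 49 encode keratin-associated proteins of hair and 140 do not. Between POTED, the first desert gene used here, and GRIK1 it lists 29. The names desert and gene-rich therefore fit the annotation.

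Dam can only mark a fragment that GATC sites delimit, so the promoters of genes at the top and the bottom of each region are shown with GATC in capitals (RefSeq, GRCh38.p14, 250 bases before to 50 bases after a start, 5′ to 3′). In 21q22, ETS2 was the highest locus, and KRTAP19-1 stands for the lowest locus with a promoter in the table. In the desert, SAMSN1 was the highest locus and TMPRSS15 the lowest. They lie at chr21:38804933-38805232 (plus strand), chr21:30480318-30480617 (minus strand), chr21:14583353-14583652 (minus strand) and chr21:18403736-18404035 (minus strand) in that order.
ETS2: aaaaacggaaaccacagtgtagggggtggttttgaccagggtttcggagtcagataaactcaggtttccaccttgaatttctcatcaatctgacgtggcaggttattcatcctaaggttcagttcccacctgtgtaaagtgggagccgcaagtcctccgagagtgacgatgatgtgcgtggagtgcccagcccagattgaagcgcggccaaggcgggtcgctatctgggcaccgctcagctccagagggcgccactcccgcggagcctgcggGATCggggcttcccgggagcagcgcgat
KRTAP19-1: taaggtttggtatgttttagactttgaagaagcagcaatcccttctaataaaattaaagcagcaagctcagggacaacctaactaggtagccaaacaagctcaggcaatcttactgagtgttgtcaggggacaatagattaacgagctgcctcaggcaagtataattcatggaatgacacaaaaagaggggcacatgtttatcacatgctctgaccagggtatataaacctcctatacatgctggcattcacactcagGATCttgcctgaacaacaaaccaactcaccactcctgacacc
SAMSN1: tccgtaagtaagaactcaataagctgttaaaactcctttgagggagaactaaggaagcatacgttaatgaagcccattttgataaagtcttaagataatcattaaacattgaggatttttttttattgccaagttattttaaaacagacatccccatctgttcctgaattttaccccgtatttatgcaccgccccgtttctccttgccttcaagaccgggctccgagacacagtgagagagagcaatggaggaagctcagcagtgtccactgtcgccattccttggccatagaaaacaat
TMPRSS15: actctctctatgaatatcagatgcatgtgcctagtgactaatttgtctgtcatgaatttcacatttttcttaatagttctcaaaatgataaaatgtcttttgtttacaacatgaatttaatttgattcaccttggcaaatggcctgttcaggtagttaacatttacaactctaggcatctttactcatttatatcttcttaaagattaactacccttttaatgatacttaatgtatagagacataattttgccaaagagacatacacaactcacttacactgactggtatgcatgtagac
The promoters of ETS2 and KRTAP19-1 hold 1 GATC each, and those of SAMSN1 and TMPRSS15 hold 0. CpG dinucleotides number 20 in the ETS2 promoter, 1 in that of KRTAP19-1, 8 in that of SAMSN1 and 0 in that of TMPRSS15. Over the 201 listed starts of 143 protein-coding genes of 21q22, 38.8% of promoters hold a GATC, against 44.1% over the 34 starts of 23 desert genes and 41.7% of all 35116 promoters in the table. GATC was read on both strands, which for this palindrome give the same sites. The median number of CpG per promoter is 17 in 21q22 (28 without the keratin-associated genes), 17.5 in the desert and 14 in all promoters. A bin holds many times more sequence than a promoter, and no genome of the files' build was used, so GATC per bin was not analysed here.

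How did Dam divide between the gene-rich region and the desert of the same chromosome? The deposited value is a ratio of observed over expected signal, and a region's level is its mean ratio divided, cell by cell, by that of the used autosomal bins off chromosome 21. The deposited ratios allow whole counts to be recovered, from 20182 to 178941 per cell. A level above 1 means more signal than on the other autosomes. The level of 21q22 was 0.440 in the lowest cell, 1.11 in the median and 1.95 in the highest. That of the desert was 0.481 in the lowest cell, 0.646 in the median and 1.23 in the highest. 21q22 was above the other autosomes in 21 of 26 cells and the desert below them in 24. The means were 1.14 ± 0.270 for 21q22 and 0.682 ± 0.175 for the desert (SD, n = 26 cells). The log2 ratio of 21q22 over the desert was 0.74 ± 0.49, a 1.67-fold difference, and it was above 0 in 25 cells. Summed over cells, 21q22 held 12226 counts and the desert 6005. Per unit of expectation 21q22 was 1.74 times the desert, with an exact 95% interval from 1.688 to 1.796 that covers counting error only.

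Cell 22 was the exception. There 21q22 stood at 0.440 and the desert at 1.23, a log2 ratio of -1.49 from 64 counts in 21q22 and 153 in the desert. In the other 25 cells the lowest log2 ratio was 0.41 (cell 17) and the highest 1.17 (cell 3), with a mean of 0.83 ± 0.20, or 1.78-fold. Cell 22 also had one of the lowest totals, 21105 counts, and the part of depth in its ratio was not tested. Cells 21, 23 and 26, with 20182, 21657 and 23286 counts, had log2 ratios of 0.93, 0.51 and 1.10. Among the 25 cells the ranges overlapped at their edges: 21q22 went down to 0.757 and the desert up to 1.02, and 21q22 was above the highest desert value in 20 cells. Taken from the summed counts of each region, counting error gives a log2 standard error between 0.064 and 0.21 per cell. Counts simulated at the depths of all 26 cells, with the desert at 0.6 and 21q22 at 1.2 in every cell, gave an SD of 0.19. The SD of 0.20 leaves out cell 22 and belongs to mean levels of 0.660 and 1.17, so the settings of these SDs are not the same. Differences among the 25 cells were not tested, and their order should not be read as a difference between them.

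**Figure D1:**
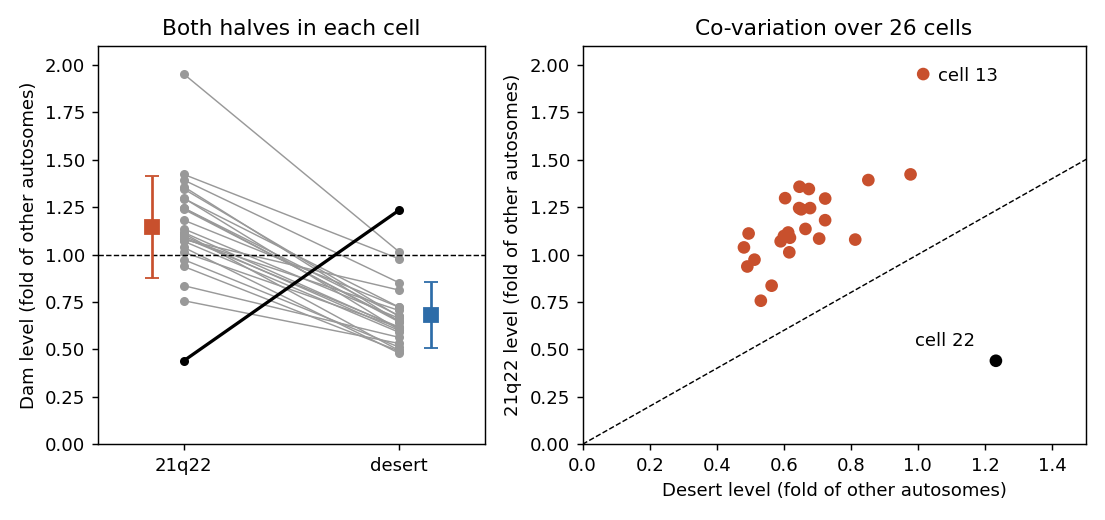
Levels of 21q22 and of the desert in each of 26 cells, in fold of the other autosomes. Left, each line is a cell, squares and bars are mean and SD, and the black line is cell 22; right, each point is a cell, and all points other than that of cell 22 lie above the dashed line of equal levels.

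The share of bins with a ratio of 1 or more, called positive here, separated the regions too. It was 44.5% ± 9.36 of bins per cell in 21q22, against 23.5% ± 5.56 in the desert (SD, n = 26), and higher in 21q22 in 25 cells. Part of this share depends on how many bins hold any count: 71.9% ± 19.2 of 21q22 bins and 51.2% ± 17.0 of desert bins were above 0. The median expectation of a bin, relative to the median over the genome, was 1.06 in 21q22 and 0.979 in the desert. In 21q22 no bin fell under 0.5 times the genome's median expectation, against 10 bins in the desert.

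Whole chromosomes give a scale for these levels. The desert, at 0.682, had a lower mean than each of the 21 other chromosomes with used bins. These are X and 20 autosomes, with chromosomes 9 and 22 named 9:22 and 22:9. Chromosome 8 has no used bin and enters neither this scale nor the mean of the other autosomes. The nearest to the desert were chromosome 4 at 0.722 ± 0.126 and chromosome 13 at 0.744 ± 0.102 (SD, n = 26), both gene-poor. These lie well within the spread of the desert between cells: chromosome 4 was above the desert in 18 cells and chromosome 13 in 19. 21q22, at 1.14, stood below 6 chromosomes. It was close to chromosome 20 at 1.14 ± 0.210 and chromosome 1 at 1.15 ± 0.110, which were below it in 15 and 16 cells. Chromosome 19, at 1.63 ± 0.467, was below it in 0 cells. When each of the 21 autosomes was cut into an upper and a lower part with equal numbers of used bins, chromosome 21 had the third largest mean log2 difference, 0.44 ± 0.57, with the upper part higher in 23 cells. Only the chromosome that the file names 9:22, at 0.51 ± 0.44, and chromosome 13, at -0.51 ± 0.24, had a larger one. On chromosome 21 this lower part takes in the 11 bins below 14 Mb, with a mean level of 3.35 ± 4.83, so the parts are not the desert and 21q22. These comparisons have no test, for the reason given above.

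**Figure D2:**
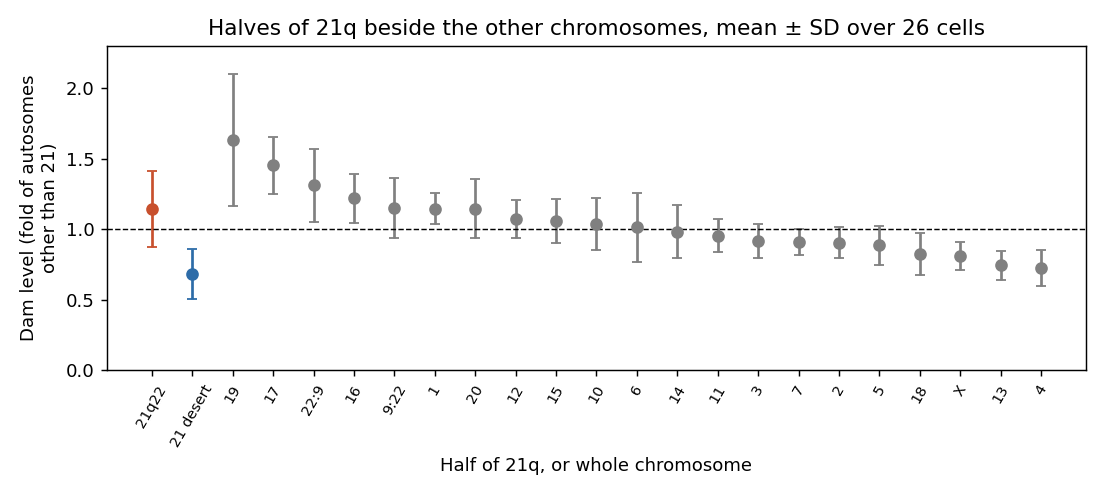
Level in fold of the autosomes other than 21, mean and SD over 26 cells, for 21q22, the desert and the 21 other chromosomes in falling order. 21q22 at 1.14 lies beside chromosomes 1 and 20, and the desert at 0.682 lies at the low end beside chromosomes 4 and 13.

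The border at 31 Mb was not a step. Among 1 Mb windows, the first of 21q22 were low, 0.638 ± 0.376 at 31 to 32 Mb and 0.576 ± 0.251 at 32 to 33 Mb, while the last of the desert, at 30 to 31 Mb, had 1.16 ± 0.561. The first window of 21q22 was the lower of the pair at the border in 21 cells. From 34 to 38 Mb the level was 1.43 ± 0.407, above 1 in 25 cells. A second trough followed at 41 to 42 Mb, 0.478 ± 0.232 and below 1 in all 26 cells, and at 42 to 43 Mb, 0.670 ± 0.339. From 43 Mb to the end it was 1.29 ± 0.318.

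The desert was higher toward its ends than in its centre. Its outer windows at 15 to 16 Mb and 16 to 17 Mb averaged 1.15 ± 0.433 and 1.16 ± 0.464, each above 1 in only 16 cells. The window at 30 to 31 Mb was above 1 in 15. In the window at 15 to 16 Mb the SAMSN1 bins stood at 3.42 and 2.85. Of its other bins only that at 15700001 to 15800000 had a mean above 1, at 1.41. The lowest windows were at 24 to 25 Mb with 0.330 ± 0.256, at 20 to 21 Mb with 0.375 ± 0.151 and at 25 to 26 Mb with 0.404 ± 0.251. The window at 20 to 21 Mb was below 1 in all 26 cells, with 0.729 in the highest cell. By stretches, the level was 0.883 ± 0.284 from 14 to 20 Mb, 0.476 ± 0.199 from 20 to 26 Mb and 0.712 ± 0.209 from 26 to 31 Mb. Of the 70 bins from 20 to 27 Mb, a span that is not one of these stretches, 4 had a mean level above 1. Of all desert bins 15.2% did, and of all used bins 37.3%.

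**Figure D3:**
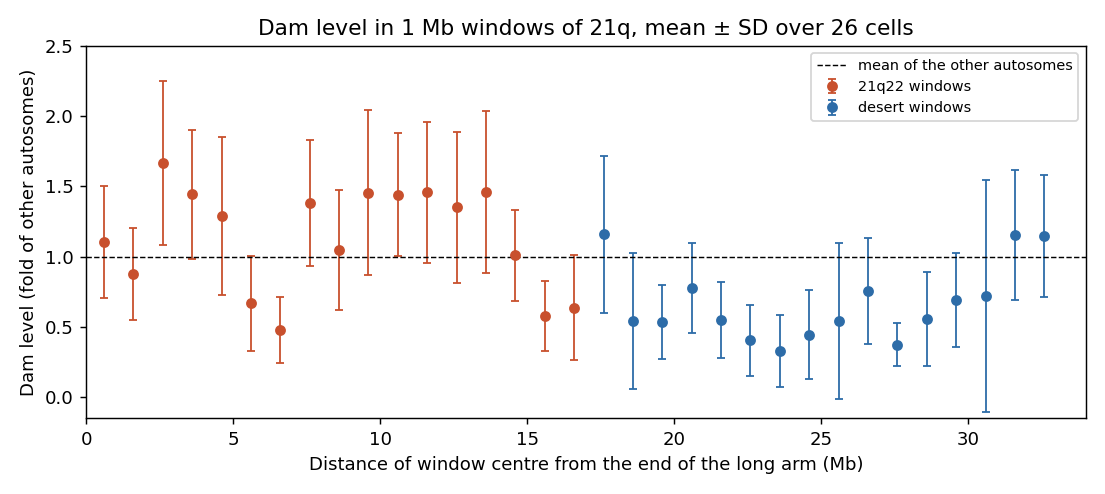
Level of 1 Mb windows in fold of the other autosomes, mean and SD over 26 cells, against distance from the end of the long arm. Windows of 21q22 form high stretches split by a trough near 0.478, and desert windows fall to 0.330 between outer windows at about 1.15.

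A window was placed on a side of 1 when at least 21 of the 26 cells lay there. In 21q22, 6 of 17 windows were above 1 and 4 below, where 21.1% and 42.3% of all 2644 windows of the genome were above and below. In the desert 0 of 16 windows were above 1 and 13 below. The window from 45 to 46 Mb was the highest of these 6, at 1.67 ± 0.586, and the others began at 34, 36, 37, 38 and 44 Mb. Without cell 22 the desert still had 13 windows below 1 and 0 above. Single cells departed from this map: in cell 22 the window at 17 to 18 Mb reached 4.58, where the next highest cell had 1.25, and that at 22 to 23 Mb reached 3.03, where the next had 0.828.

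**Figure D4:**
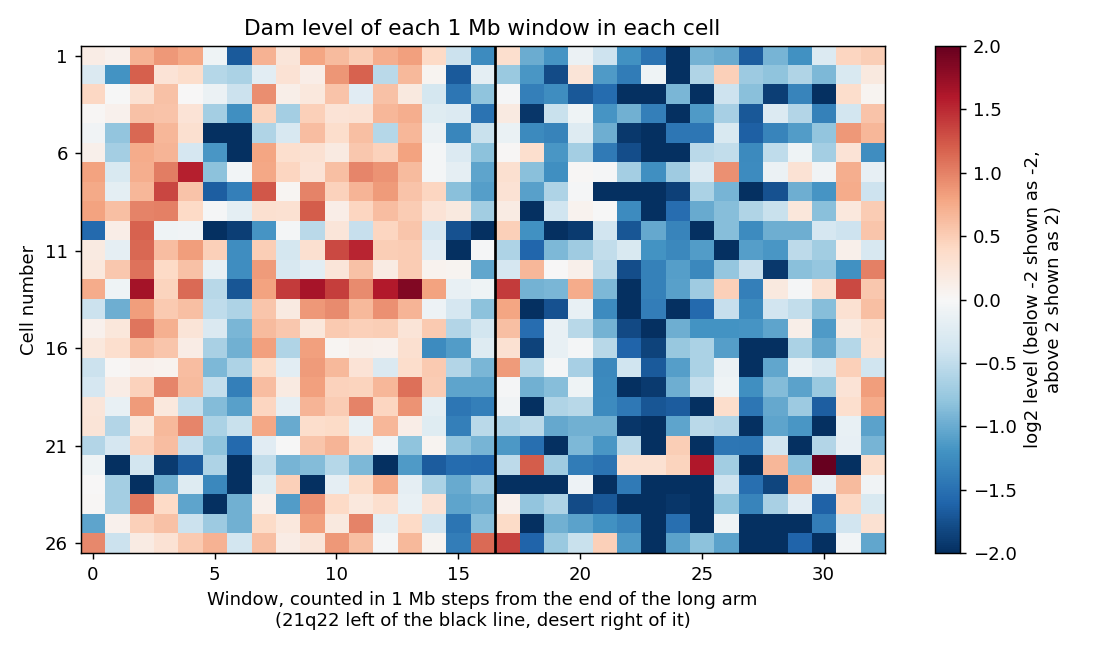
Log2 level of each 1 Mb window (columns, from the end of the long arm) in each cell (rows), with 21q22 left of the black line and the desert right of it. Cell 22 shows blue in most of 21q22 and red in several desert windows, and cell 13 is raised over most of 21q22.

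The next question was which gene loci lay in the high and the low stretches. Positions of 50 loci with 70 named genes, besides the keratin-associated clusters, were written from general knowledge of hg19. Their order and spacing (within 0.1 Mb) match those of the RefSeq table in 49 of 49 neighbouring pairs. A locus takes the bins it touches, between 1 and 10, so 12 loci share a bin with another. In 21q22, 25 of 36 loci had a mean level above 1, and in the desert 6 of 14, where 37.3% of all used bins in the genome did. Of the used bins of each region, 48.0% in 21q22 and 15.2% in the desert did. These shares are of single bins, whereas a locus can average several.

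In 21q22 all 6 loci of the class of blood cell, leukaemia and interferon genes had means above 1, where 48.0% of all 21q22 bins did. RUNX1, a transcription factor needed for the first blood stem cells, is at 36100001 to 36500000. It had a level of 0.699 in the lowest cell, 2.03 in the median and 3.51 in the highest, and averaged 1.99 ± 0.653, above 1 in 23 cells. ERG, an ETS factor of blood stem cells and vessels, is at 39700001 to 40100000 and ran from 0.494 through a median of 1.61 to 4.56. Its mean was 1.73 ± 0.866, and RUNX1 was higher than ERG in 16 cells, a difference within the spread between cells. ETS2, another ETS factor, averaged 2.24 ± 1.48 in its single bin. The receptor cluster from IFNAR2 to IFNGR2, which bind interferons, averaged 1.93 ± 1.19 and was above 1 in 24 cells. ITGB2, the shared chain of leukocyte integrins, stood at 1.66 ± 1.25, and MX2-MX1, antiviral GTPases that interferon induces, at 1.11 ± 0.895 with 11 cells above 1.

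The highest locus of all 50 lay in the desert. SAMSN1, which encodes an adaptor protein of blood cells, took the bins from 15800001 to 16000000 and had a level of 0 in the lowest cell, 3.13 in the median and 6.46 in the highest. It was above 1 in 24 cells, with a mean of 3.14 ± 1.39 (SD, n = 26) from 423 counts, and the cell at 0 was cell 22. It was higher than RUNX1 in 21 cells and higher than TMPRSS15, the gene of intestinal enteropeptidase, in 25. BACH1, a haem-responsive repressor at the other end of the desert, averaged 1.34 ± 1.06, with as many cells above 1 as below, 13 each.

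Broadly expressed genes were mostly high in 21q22, with means above 1 at 14 of 16 loci and a median of 1.51. Of all 21q22 bins, 48.0% had a mean above 1. PRMT2, an arginine methyltransferase in the last used bin of the chromosome, averaged 2.17 ± 1.49. CBS-U2AF1, with a splicing factor gene, was at 1.81 ± 0.805 and DYRK1A, a protein kinase, at 1.64 ± 0.915. The exceptions were TIAM1, an activator of Rac, at 0.647 ± 0.362, and ADARB1, an RNA editing enzyme, at 0.690 ± 0.512. In the desert 4 of 7 broadly expressed loci were above 1, where 15.2% of all desert bins were, and the median was 1.04. LTN1-USP16-CCT8, at 30300001 to 30500000, holds genes for ribosome quality control, a deubiquitinase and a chaperonin subunit, and averaged 1.90 ± 0.983, above 1 in 23 cells. BTG3-CXADR averaged 1.69 ± 1.55, above 1 in 15. APP, the amyloid precursor gene at 27200001 to 27600000, ran from 0 through a median of 0.925 to 2.93 and averaged 1.04 ± 0.618, with 12 cells above 1.

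The class called neuronal also takes in glial genes. It had means above 1 at 2 of 6 loci in 21q22, where 48.0% of all 21q22 bins did. In the desert it had 0 of 1, where 15.2% of all desert bins did. The class included some of the lowest loci. DSCAM, a very long gene for an adhesion molecule of neurons, fills most of the trough at 41300001 to 42300000. It had a level of 0.103 in the lowest cell, 0.436 in the median and 1.09 in the highest, and averaged 0.466 ± 0.266, below 1 in 24 cells. RUNX1 was higher than DSCAM in 25 cells and ERG in 26. PCP4, a small calmodulin-binding protein of Purkinje cells that shares a bin with DSCAM, was lowest in 21q22 at 0.337 ± 0.324. NCAM2, the adhesion gene of the inner desert, averaged 0.475 ± 0.548. In cell 22 it stood at 2.88, while the other 25 cells averaged 0.378 ± 0.249 and reached at most 0.810. S100B, a glial calcium-binding protein, averaged 2.17 but shares its only bin with PRMT2. The other locus above 1 was OLIG2-OLIG1, at 1.23 ± 0.864, and SIM2 was at 1.00 ± 0.646.

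Genes of epithelia and other tissues had means above 1 at 3 of 8 loci in 21q22, where 48.0% of all 21q22 bins did. In the desert 0 of 4 did, where 15.2% of all desert bins did. Over all used bins of the genome the share was 37.3%. The keratin-associated cluster KRTAP19-KRTAP11, densely packed with hair genes, had a level of 0 in the lowest cell, 0.287 in the median and 1.44 in the highest, and a mean of 0.422 ± 0.362. It was below 1 in 24 cells, and of the 14 desert loci TMPRSS15 alone had a lower mean. The other such cluster, KRTAP10, was at 0.682 ± 0.521, and CLDN17-CLDN8, claudins of epithelia, at 0.468 ± 0.542. HUNK, a kinase gene, averaged 1.14 ± 0.722 and RCAN1, an inhibitor of calcineurin, 1.37 ± 0.674. In the desert CHODL was at 0.443 ± 0.331 and TMPRSS15 at 0.316 ± 0.345. POTED averaged 0.737 from only 3 counts, with 12.7 in cell 22. CRYAA, the lens crystallin gene, stood at 1.77 ± 1.35, but its bin also holds part of CBS-U2AF1.

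Levels per cell were also averaged over the loci of a class within 21q22. The class of blood cell, leukaemia and interferon genes, called blood loci here, had 1.78 ± 0.516 and broadly expressed genes 1.47 ± 0.519. The class called neuronal had 1.00 ± 0.398 and other tissue-specific genes 0.920 ± 0.361 (SD, n = 26). Broadly expressed loci were higher than neuronal ones in 25 cells and higher than the other tissue-specific ones in 24, but higher than blood loci in 8. Without the 8 loci that share a bin with another class, the neuronal mean was 0.769 ± 0.290 and the other tissue-specific mean 0.819 ± 0.337. Transcription was not analysed here, and the classes rest on general knowledge of where the genes are expressed. Because the loci were chosen with earlier results of these data known, the order of the classes is a description only.

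**Figure D5:**
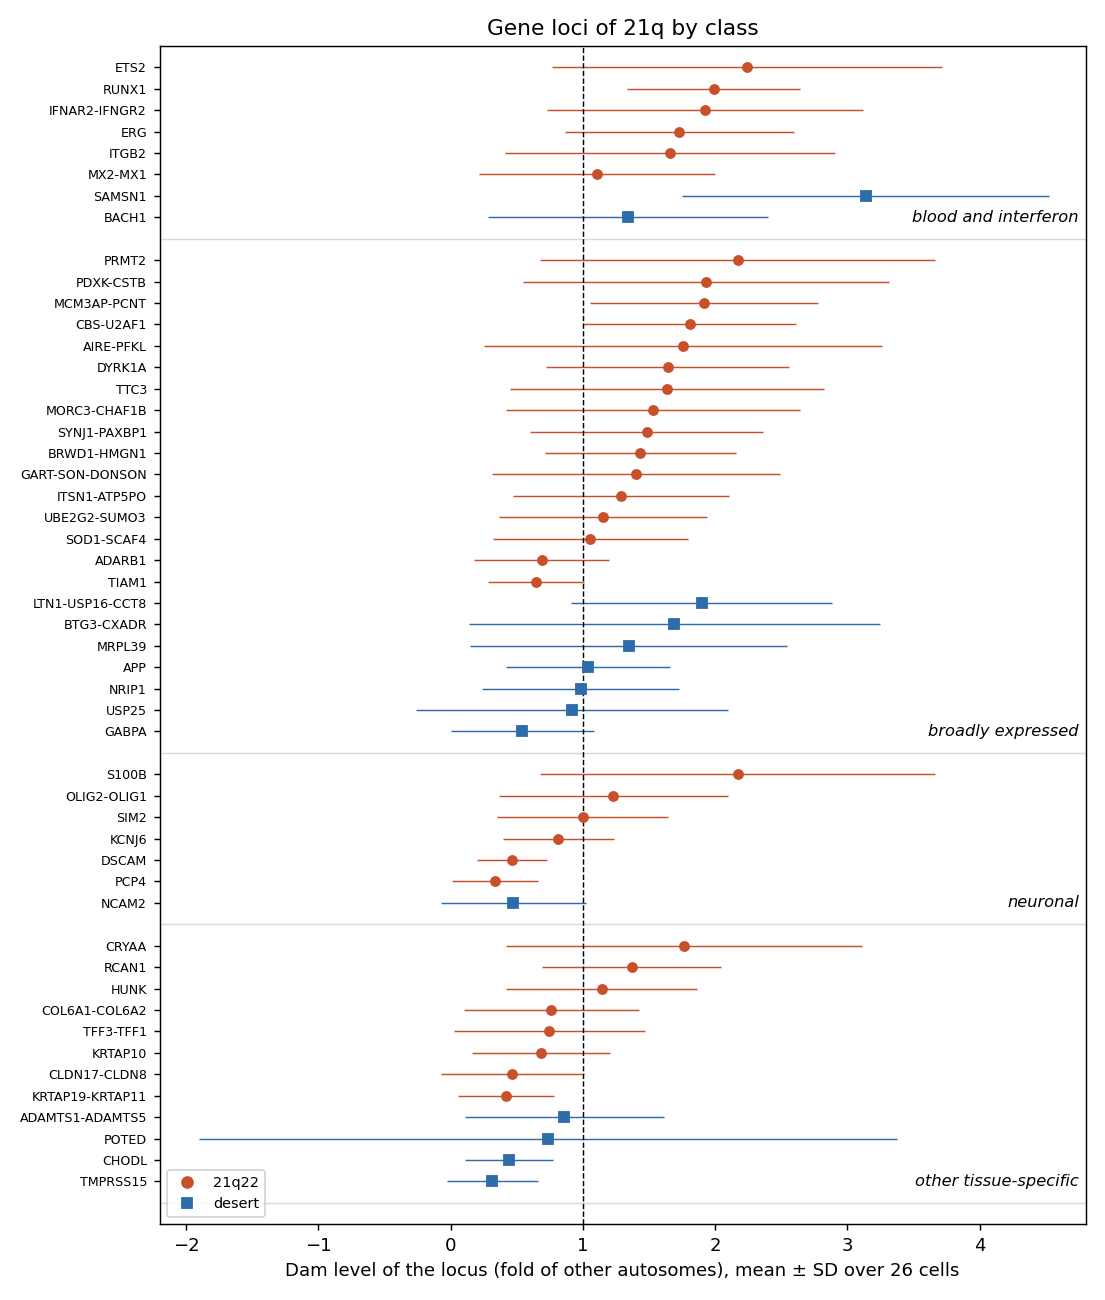
Level of 50 gene loci of 21q in fold of the other autosomes, mean and SD over 26 cells, grouped by class, with circles for 21q22 and squares for the desert. SAMSN1 at 3.14 in the desert is the highest, and DSCAM at 0.466 and KRTAP19-KRTAP11 at 0.422 in 21q22 are below the desert median of 0.951.

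Bins that most cells shared were few on either side. Positive in at least 80% of cells were 12 of 171 bins in 21q22 (7.02%) and 3 of 164 in the desert (1.83%), where 5.61% of all used bins were. At the other end, 31 bins of 21q22 (18.1%) and 96 of the desert (58.5%) were positive in 20% of cells or fewer, where 33.5% of all used bins were. The share in 21q22 of bins positive in most cells was thus near that of the genome, and the larger departure was in the desert's bins of few cells. The longest runs of shared bins in 21q22 were 2 bins long. The one at 37400001 to 37600000 had a level of 2.73 ± 1.23 and was above 1 in all 26 cells, and the one at 45500001 to 45700000 had 2.50 ± 1.19 and was above 1 in 25. In the desert the longest was also 2 bins long and was the SAMSN1 locus. The longest run of bins positive in few cells spanned 15 bins in the desert, from 19300001 to 20800000, with a level of 0.313 ± 0.184 and no cell above 0.644. In 21q22 it spanned 5 bins, from 41100001 to 41600000, at 0.402 ± 0.290.

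Among single bins with at least 0.5 times the median expectation, the highest of 21q22 lay within ERG, at 39800001 to 39900000. It averaged 3.71 ± 2.11 from 236 counts and was positive in 25 cells. Next came 45600001 to 45700000 at 3.00 ± 2.24 and 37500001 to 37600000 at 2.85 ± 1.29. In the desert both SAMSN1 bins led, at 3.42 ± 2.18 and 2.85 ± 1.70, followed by 30400001 to 30500000, in LTN1-USP16-CCT8, at 2.14 ± 1.08.

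The last comparison was between cells. Over 26 cells the levels of 21q22 and the desert had a Pearson correlation of 0.16 and a Spearman correlation of 0.52. Without cell 22 these were 0.78 and 0.71 (n = 25), a description of points that share 1 expectation per bin and differ in depth. Cutting each of the 20 other autosomes into equal parts gave Pearson correlations from 0.14 to 0.89 without cell 22, with a median of 0.69. Chromosome 21 cut in the same way gave 0.27, toward the low end of that range. Its equal parts are not the desert and 21q22, so the value of 0.78 cannot be ranked against the other autosomes. Cell 13 was highest in 21q22, at 1.95, and second in the desert, at 1.02. The spread of the 21q22 level between cells was 23.6% of its mean and that of the desert 25.7%. Counting error of the summed counts is on average 5.51% and 7.50%. A level is an unweighted mean over bins, so its own counting error can be larger, above all with bins of low expectation, and was not computed. As summed counts over summed expectation, the levels were 1.15 ± 0.271 in 21q22 and 0.691 ± 0.168 in the desert (SD, n = 26). DNA copy number of chromosome 21 in the sorted cells was not analysed here, and its part in these differences was not tested.

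The log2 ratio of 21q22 over the desert went only loosely with depth. Its Pearson correlation with log2 total counts was 0.31 and Spearman's 0.13 over 26 cells. Gene-dense chromosomes 16, 17, 19 and 20 over gene-poor 4, 5, 13 and 18 gave a log2 ratio of 0.77 ± 0.28 in the same cells, and its correlation with the ratio on chromosome 21 was 0.57 (Pearson) and 0.50 (Spearman). Leaving out the 2 cells farthest from the median of the first measure gave a Pearson correlation of 0.44. The contrast inside chromosome 21 was larger than that between these chromosomes in 15 of 26 cells.

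The 11 bins below 14 Mb, between 9400001 and 11200000, belong to neither region. All had an expectation under 0.5 times the genome's median, and together they held 169 counts. The bin at 9800001 to 9900000 gave 78 of these and was positive in all 26 cells, at 9.24 ± 4.38. Its expectation was 18.7% of the median bin. These bins weighed on the level of the whole chromosome: it was 0.995 ± 0.212 with them and 0.918 ± 0.174 without, above 1 in 11 and in 6 cells. Cells 6 and 3, at 1.42 and 1.39 for the whole chromosome, had 1.10 and 1.11 in 21q22 and 0.601 and 0.495 in the desert.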

How the data were processed

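Single-cell DamID was measured in 26 KBM7 cells. Per the labels' protocols, DpnI cut the DNA at methylated GATC before adapter ligation and a PCR of 21 extension steps. Each deposited value is a ratio on a linear scale for a bin of 100 kb in a cell. The file's name gives it as observed over expected. The submitters' processing notes name cutadapt, Bowtie2 2.1.0 and hg19. The sources used here do not say how the authors counted, masked bins or built the expectation.

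Of 30376 bins, 3792 had no value, 253 were 0 in all cells and 26331 were used. On chromosome 21, 126 of 482 bins had no value and 10 were 0 in all cells. Within a bin the ratios are whole multiples of a step, so the smallest whole counts were recovered (tolerance 0.001). For bins with counts in few cells they hold only up to a common factor. Totals per cell ran from 20182 to 178941, median 42448.5. Exact Poisson intervals cover counting error only, and PCR copies may not be independent. On simulated counts 99.98% of 26285 bins were recovered exactly, and a log2 ratio set at 1 was found as 0.96.

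Members and loci were chosen with earlier results of these data known. Named were the 3 highest and 3 lowest loci and windows and the 3 highest bins of each region, the longest runs, each class, and RUNX1, ERG, APP and DSCAM. Gene positions in hg19 came from general knowledge, checked for order and spacing against RefSeq genes of GRCh38.p14. Windows needed at least 5 used bins. The alternatives were bin filters, borders, capping at the 99th percentile, log2 with 0.1 added, thinning to 20000 counts and fewer cells. Scripts used Python 3.11.15, scipy 1.17.1, numpy 2.4.6 and pandas 2.3.3, with matplotlib 3.10.9 for figures.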

Additional observations from a re-analysis of the deposited data

Results flagged for a closer look

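The bins of chromosome 21 below 14 Mb enter no comparison between 21q22 and the desert, and they carried signal. Their summed counts over summed expectation were 2.75 times those of the other autosomes, with a 95% Poisson interval from 2.35 to 3.20 for 169 counts in 11 bins. Another 7 bins there had a value but were 0 in all cells, and leaving them out raises this ratio. The bins at 9800001 and 11100001 gave 78 and 56 of the counts. Several others had counts in few cells, where counts hold only up to a common factor, so the interval is approximate. There are no control samples to set this against.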

How the results depend on the processing

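Of 85 recomputed values, 77 stayed within the criterion for their kind, which was 1 SD between cells for means and 1.5 times for counts. A change of direction was looked for in the log2 ratio of 21q22 over the desert alone, and its mean kept its sign. The level of the whole chromosome, 0.995 in the main setting, ran from 0.918 to 1.04 and so fell on both sides of 1. The log2 ratio of 21q22 over the desert stayed between 0.66 without the terminal 5 Mb and 0.95 on log2 values over 14 settings, and was above 0 in all cells but 1 in each setting that kept cell 22. The desert level ran from 0.651 to 0.699 and that of 21q22 from 1.08 to 1.32. A border at 33 Mb, chosen after the data were seen, gave a log2 ratio of 0.84. Bins of 21q22 positive in at least 80% of cells numbered 12, against 23 without the 6 cells of lowest total, 41 with positive at 0.5 or more and 2 at 2 or more. In the desert, 96 bins were positive in 20% of cells or fewer, against 46 with thinned counts, 20 at 0.5 or more and 150 at 2 or more. The correlation of the regions was 0.78 without cell 22, and chromosome 21 ranked 2 among the 21 autosomes by the contrast of its parts without the 6 cells of lowest total. All 199 recomputed locus levels moved by less than 1 SD between cells, a wide margin for single bins, and 10 crossed 1. With 1 bin more on each side MRPL39 went to 0.852, APP to 0.874, SOD1-SCAF4 to 0.889, MX2-MX1 to 0.803 and TFF3-TFF1 to 1.25. Leaving out cell 22, the 11 bins below 14 Mb or loci that share bins was chosen after the data were seen for windows, the chromosome level and classes. No paired analysis was possible because all cells belong to 1 group, so replicate numbers pair no samples between groups. The regions were compared within each cell. A single bin in 1 cell holds few counts, so single-bin loci are the least precise.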
